A study of Homo sapiens with 6 samples.

Results

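The genes described here are 10 genes of antioxidant defence, SOD1, SOD2, SOD3, CAT, GPX1, HMOX1, NQO1, GCLM, TXNRD1 and SLC7A11, taken by gene name from a gene expression table of 58735 genes. The names matched 11 rows of the table, because SOD2 is listed there under 2 gene identifiers. RNA-seq was carried out on U251 cells, an established human glioblastoma line, in a study that asked how low-dose tumor necrosis factor-α (TNF-α) acts on glioblastoma cells. Cells of the NC group (n = 3) received sterile deionized water in the same volume, and cells of the TNF-α group (n = 3) recombinant human TNF-α at 10 ng/mL, both for 24 h. According to the labels, the 3 replicates of each group were independent biological replicates, and all of them came from this single line. Values are FPKM as deposited by the authors, that is, fragments divided by gene length and by a total set for each library. This total was not the number of reads in genes, as given below. Levels of different genes are thus compared per length.

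Cells convert superoxide to hydrogen peroxide with superoxide dismutases, of which SOD1 works in the cytosol, SOD2 in the mitochondrial matrix and SOD3 outside the cell. Catalase, the glutathione peroxidases and the thioredoxin-linked peroxidases then remove the peroxide, with reducing power that comes from NADPH. The transcription factor NRF2 (NFE2L2), which KEAP1 holds in check, drives many of the genes for glutathione, thioredoxin, heme and quinone handling through antioxidant response elements, whereas SOD2 is a textbook target of NF-kB, the factor that TNF-α activates.

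The start sites of the genes were examined first, because the letters there show how far the 10 genes share promoter elements. RefSeq promoter windows on GRCh38.p14, each from 250 bases before to 50 bases after a start site, were found for 7 of the 10 genes, in 11 windows, and not for SOD1, HMOX1 and SLC7A11. The window below is 1 of 4 for SOD2 (chr6:159693192-159693491, minus strand), near the start site where most of its transcripts begin, and is shown because it holds the most GC boxes of the 4. It is written 5′ to 3′ with the GC box GGGCGG (the SP1 element, searched on both strands, overlapping copies included) in capitals.
SOD2: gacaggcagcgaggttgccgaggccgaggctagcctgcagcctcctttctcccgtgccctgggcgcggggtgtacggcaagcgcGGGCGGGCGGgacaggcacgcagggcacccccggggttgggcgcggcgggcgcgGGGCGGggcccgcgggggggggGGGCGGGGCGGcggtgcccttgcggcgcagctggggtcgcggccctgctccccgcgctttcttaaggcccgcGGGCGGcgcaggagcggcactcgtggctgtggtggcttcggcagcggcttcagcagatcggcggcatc
The GC box occurred 6 times in this window and 1, 4 and 1 times in the other SOD2 windows, and 45.0% of all 35116 windows of the same length held it at least once. The NF-kB consensus of 10 letters, searched on both strands, was absent from the 11 windows, and 11.3% of all windows held it. The AP-1 element TGANTCA was likewise absent from the 11 windows and occurred in 7.71% of all windows. Where these letters are not found in such a window, nothing follows about the factor.

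The core of the antioxidant response element, TGACNNNGC on either strand, was found in GCLM and TXNRD1 and in 13.3% of all windows. The following stretches are shown because they hold the matches among the 10 genes. They are written 5′ to 3′ in the direction of transcription, with the core in capitals, and positions are those of the first capital counted from the start site.
GCLM (chr1:93909436-93909484, minus strand, position -34): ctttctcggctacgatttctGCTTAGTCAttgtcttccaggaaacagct
TXNRD1 (chr12:104215660-104215708, plus strand, position -99): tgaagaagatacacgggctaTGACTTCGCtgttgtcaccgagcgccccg
TXNRD1 (chr12:104215751-104215799, plus strand, position -8): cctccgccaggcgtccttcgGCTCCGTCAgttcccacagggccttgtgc
TXNRD1 (chr12:104286910-104286958, plus strand, position -102): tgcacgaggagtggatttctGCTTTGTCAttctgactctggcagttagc
In GCLM, in the downstream TXNRD1 window and at position -8 of the upstream TXNRD1 window the core lies on the strand opposite to the gene, so that it reads there as the reverse complement. A match of this kind is a description of the letters and not a mapped binding site.

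The libraries held between 31992167 and 37897044 reads in genes. The total behind the FPKM was 0.925 to 0.959 of these reads in NC and in TNF-α replicate 1. In TNF-α replicates 2 and 3 it was 0.693 and 0.759. FPKM in these 2 libraries are therefore raised more, relative to reads in genes, than in the others. Their FPKM summed to 463340 and 408175, as against 256373 to 266716 in the others. The part of this scaling in each result was not tested. At least 1 FPKM in some library was reached by 5 of 6 markers of a glioma line (all but S100B), by SYT1 and SNAP25 of 3 neuron markers and by CD14 of 5 leukocyte and microglia markers, and by 0 of 3 endothelial and 0 of 2 epithelial markers. PTPRC, which defines leukocytes, was at 0 in every library. The summed level of the glioma line markers was 568 to 618 FPKM in NC and 675 to 1205 in TNF-α libraries, that of the leukocyte and microglia markers 0.869 to 1.16 and 0.654 to 1.67, and that of the neuron markers 4.45 to 4.82 and 1.96 to 4.50. VIM made up most of the glioma sum, with means of 343 in NC and 753 in TNF-α libraries, whereas SOX2 had means of 62.0 and 36.9 and GFAP of 8.24 and 2.19. Their part in the results below was not tested. The TNF-α libraries were not alike. Across the 12136 genes with at least 1 FPKM in at least 3 libraries, taken as a description because genes do not vary independently, Pearson's r was 0.992 between TNF-α replicates 2 and 3 but 0.889 and 0.912 between TNF-α replicate 1 and these 2 libraries, whereas TNF-α replicate 1 correlated at 0.979 to 0.980 with the NC libraries. In TNF-α replicates 2 and 3, values depended on gene length. For the 2775 genes under 2.5 kb the median log2 ratio to the NC mean was 0.68 and 0.55, and for the 1282 genes of at least 10 kb it was -0.67 and -0.62, as against -0.03 and 0.00 in TNF-α replicate 1. The part of this composition in each result was not tested. For the 9 tested members it is met below by 3 values per gene. The first is the fit over all 6 libraries (limma on log2(FPKM + 1), adjusted over all 12136 genes). The second is the same fit after a correction for GC content and gene length. The third is the value in TNF-α replicate 1, where the medians of short and long genes were near 0. For some other named genes only the first is given. In bulk RNA, a change in the number of cells of a kind and a change in the RNA of each cell cannot be told apart.

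SOD2, the mitochondrial manganese superoxide dismutase, was the member that rose. Its FPKM in NC was 4.22, 4.33 and 4.36, and TNF-α replicates 1 to 3 had 21.7, 12.4 and 13.9. All TNF-α libraries thus lay above all NC libraries, and the highest of them was TNF-α replicate 1. The group means were 4.31 ± 0.0756 and 16.0 ± 5.00 (SD, n = 3 each), and the 3 TNF-α libraries were at 5.04, 2.88 and 3.22 times the NC mean. On the log2(FPKM + 1) scale the difference was 1.64 (SE 0.21, 95% interval 1.12 to 2.16, limma adjusted p = 0.0316). The exact two-sided permutation test gave p = 0.1, the smallest value that 3 against 3 libraries allow.

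Of the 12136 genes, 87 rose (0.717%) and 36 fell (0.297%) in this fit, and 2942 had an unadjusted p under 0.05 (24.2%). SOD2 ranked 58th by log2 fold change and 26th by its ratio in TNF-α replicate 1 alone. Its reads numbered 2515, 2343 and 2312 under NC and 11502, 5296 and 5557 under TNF-α, so that counting error was small beside the spread between the TNF-α libraries. The call turned on single libraries while the size did not. Without NC replicate 1, 2 or 3 the adjusted p was 0.218, 0.228 and 0.237, without TNF-α replicate 2 or 3 it was 0.0575 and 0.160, and without TNF-α replicate 1 it was 1.01e-05, with log2 fold changes between 1.41 and 1.79.

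SOD2 is long in this table, at 16493 bases of merged exons, a length class in which the median gene was lower in TNF-α replicates 2 and 3. After the GC and length correction its log2 ratios were 2.07, 2.15 and 2.26 in TNF-α replicates 1 to 3, where the fitted effect of GC and length had been 0.03, -0.81 and -0.77. The corrected log2 fold change was 2.16 (SE 0.09, 95% interval 1.94 to 2.37, limma adjusted p = 0.000263). The 3 TNF-α libraries, which differed as deposited, were thus close together after the correction. The fitted effect was taken for the full 16493 bases and for the GC content of the longest transcript. Whether it holds for the SOD2 transcripts present was not tested. Neither the SE nor the interval includes the error of the fitted effect. In this fit 154 of 12131 genes were higher (1.27%) and 93 lower (0.767%). When TNF-α replicate 1 alone was set against the NC libraries, an alternative chosen after seeing the data in which the lone sample is assumed to vary as the NC libraries do, the log2 fold change was 2.10 (limma adjusted p = 7.2e-05), with 3.7% of genes higher and 2.33% lower.

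The level of SOD2 per length depends on how the gene is drawn. The entry with the reads, ENSG00000112096, lies on chromosome 6 from 159669057 to 159745186 (minus strand, GRCh38) and has 14 transcripts. Its longest merged exon covers 13582 bases, 82.4% of its length. The second entry, ENSG00000285441, runs from 159679119 to 159762529, has 1 transcript and 2558 bases, and received 1, 0 and 0 reads under NC and 1, 0 and 2 under TNF-α. The entries share 845 exonic bases, which is 5.12% of the first and 33.0% of the second, and 803 of the 1044 coding bases of the first entry lie in exons of the second entry or of WTAP. How reads in shared exons were assigned is not given in the sources used here, so that the part of them in the SOD2 value is unknown. WTAP, an RNA methylation cofactor that overlaps SOD2 on the opposite strand, had 15.8, 16.0 and 16.0 FPKM in NC and 20.6, 25.3 and 26.7 in TNF-α libraries (log2 fold change 0.57, limma adjusted p = 0.167). Use of strand in counting is not stated, and reads of the shared bases cannot be told apart.

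**Figure D1:**
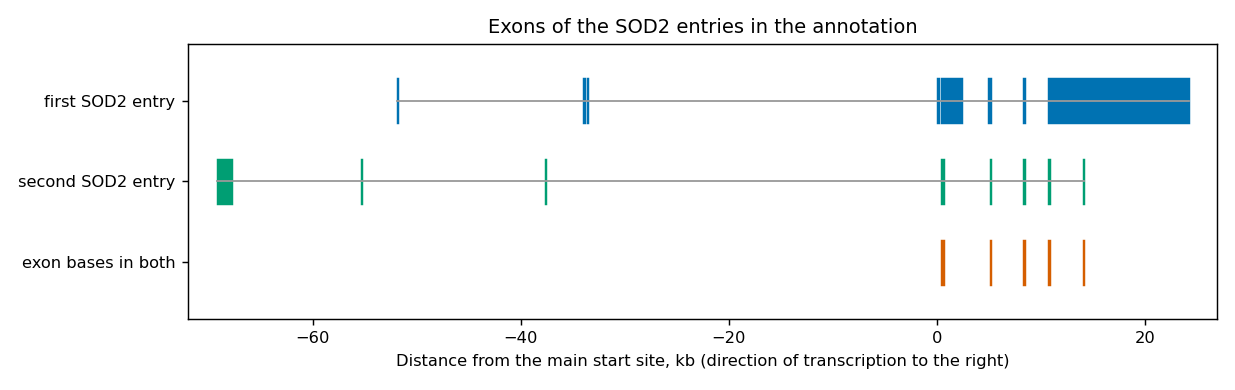
Merged exons of the 2 SOD2 entries in the annotation, drawn by distance in kb from the start site where most transcripts of the first entry begin, with transcription to the right. The top row is ENSG00000112096, the middle row ENSG00000285441 and the bottom row the exon bases they share, 845 in all. The 13582-base exon at the right end of the first entry carries most of its length.

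Of the other dismutases, SOD1, the cytosolic copper and zinc enzyme (ENSG00000142168, chromosome 21), had 61.0, 57.1 and 55.9 FPKM in NC and 54.3, 173 and 135 FPKM in TNF-α libraries. TNF-α replicate 1 lay just below the NC range, whereas the other 2 lay far above it, so that the groups overlapped. Its log2 fold change was 0.89 (SE 0.42, 95% interval -0.13 to 1.92, limma adjusted p = 0.196), and 0.46 after the GC and length correction (adjusted p = 0.211). SOD1 therefore did not pass the test in either fit. The ratio of SOD1 to SOD2 FPKM was 14.5, 13.2 and 12.8 in NC and 2.5, 14.0 and 9.76 in TNF-α libraries. It was lowest in TNF-α replicate 1 and within the NC range in TNF-α replicate 2, where short genes such as SOD1 (2019 bases) were high as a class.

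SOD3, the secreted dismutase (ENSG00000109610, chromosome 4), was near the limit of detection, with 9, 2 and 0 reads in NC and 0 in each TNF-α library. A count of 3 reads corresponded to between 0.0390 and 0.0581 FPKM for this gene. At this depth no difference could be detected, and SOD3 and the second SOD2 entry stayed out of the test. Such limits cover counting error only.

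Neither of the enzymes that remove hydrogen peroxide passed the test. CAT, the peroxisomal catalase (ENSG00000121691, chromosome 11), had 8.39, 8.47 and 8.25 FPKM in NC and 6.80, 4.80 and 6.73 in TNF-α libraries. The groups did not overlap, and TNF-α replicate 1 was on the same side as the other 2. CAT had a log2 fold change of -0.41 (SE 0.15, 95% interval -0.79 to -0.04, limma adjusted p = 0.195) and -0.52 after correction (adjusted p = 0.147).

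GPX1, the main cytosolic glutathione peroxidase (ENSG00000233276, chromosome 3), was the member with the highest level per length. It had 255, 244 and 258 FPKM in NC and 242, 1106 and 829 in TNF-α libraries. TNF-α replicate 1 again lay just below the NC range and the other 2 were at 4.38 and 3.28 times the NC mean. Its log2 fold change of 1.26 carried a wide error (SE 0.56, 95% interval -0.09 to 2.61, limma adjusted p = 0.195). After correction it was 0.61 (adjusted p = 0.183), with 0.00, 1.00 and 0.82 in TNF-α replicates 1 to 3. At 1430 bases GPX1 is the shortest member, and the annotation labels it a polymorphic pseudogene.

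**Figure D2:**
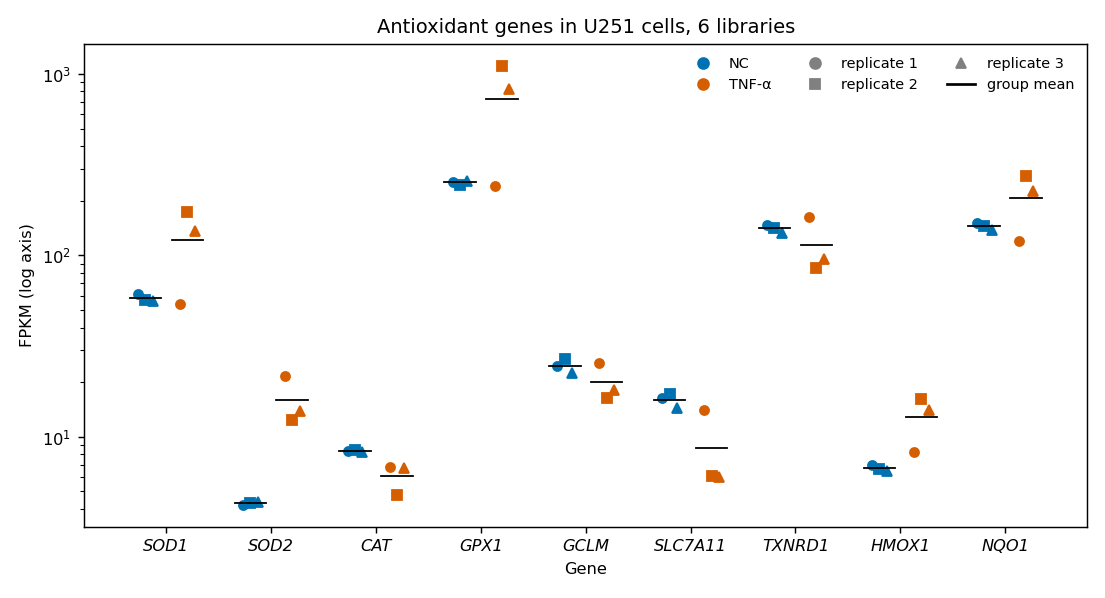
FPKM of the 9 tested genes on a log axis, with the 3 NC libraries in blue, the 3 TNF-α libraries in orange, marker shape for the replicate and a line for each group mean. SOD2 moves from 4.22 to 4.36 FPKM in NC to 12.4 to 21.7 in TNF-α libraries, and in GPX1, SOD1 and NQO1 TNF-α replicate 1 (circles) lies below the NC points while the other 2 lie above.

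The genes that supply glutathione and reduce thioredoxin were SLC7A11, GCLM and TXNRD1, and none of them passed the test. SLC7A11 is the cystine transporter subunit that brings in the precursor of glutathione (ENSG00000151012, chromosome 4). It had 16.4, 17.2 and 14.4 FPKM in NC and 14.0, 6.05 and 6.03 in TNF-α libraries. The groups did not overlap, but TNF-α replicate 1 lay close under the lowest NC library. SLC7A11 had a log2 fold change of -0.91 (SE 0.31, 95% interval -1.67 to -0.14, limma adjusted p = 0.195), and the correction took it to -0.46 (95% interval -0.78 to -0.14, adjusted p = 0.131). Exons of SLC7A11-AS1 on the opposite strand share 8.97% of its length.

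GCLM, the modifier subunit of the enzyme that starts glutathione synthesis (ENSG00000023909, chromosome 1), had 24.6, 26.8 and 22.4 FPKM in NC and 25.6, 16.4 and 18.0 in TNF-α libraries. TNF-α replicate 1 was within the NC range. The log2 fold change of -0.31 (SE 0.20, limma adjusted p = 0.264) became -0.03 after correction (95% interval -0.24 to 0.18, adjusted p = 0.808). TXNRD1, the cytosolic thioredoxin reductase (ENSG00000198431, chromosome 12), had 148, 142 and 134 FPKM in NC and 162, 84.8 and 96.0 in TNF-α libraries. Here TNF-α replicate 1 was above and the other 2 were below all NC libraries. Its log2 fold change was -0.36 (SE 0.27, limma adjusted p = 0.320), and -0.15 after correction (95% interval -0.54 to 0.25, adjusted p = 0.503). GCLM and TXNRD1 are the genes whose response element cores are printed above.

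HMOX1 and NQO1, the classical NRF2 targets for heme breakdown and quinone reduction, also did not pass. HMOX1 (ENSG00000100292, chromosome 22) had 6.98, 6.62 and 6.49 FPKM in NC and 8.23, 16.2 and 14.1 in TNF-α libraries. All TNF-α libraries were above all NC libraries, with TNF-α replicate 1 closest to them. HMOX1 had a log2 fold change of 0.80 (SE 0.24, 95% interval 0.21 to 1.39, limma adjusted p = 0.195). After correction the 3 TNF-α libraries stood at 0.28, 0.23 and 0.21, and the log2 fold change was 0.24 (95% interval 0.02 to 0.45, adjusted p = 0.172). The corrected values of HMOX1 were thus small and close together.

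NQO1 (ENSG00000181019, chromosome 16) had 151, 145 and 137 FPKM in NC and 120, 274 and 226 in TNF-α libraries. TNF-α replicate 1 was below and the other 2 were above every NC library. Its log2 fold change was 0.43 (SE 0.32, limma adjusted p = 0.321) and 0.27 after correction (adjusted p = 0.410). Its sign turned with the scaling, to -0.07 as TPM and -0.23 after quantile normalization. Relative to the all-gene median its log2 fold change was 0.35 as TPM and -0.23 after quantile normalization, as against 0.39 as deposited. Exons of AC092115.2 on the opposite strand share 17.7% of its length.

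**Figure D3:**
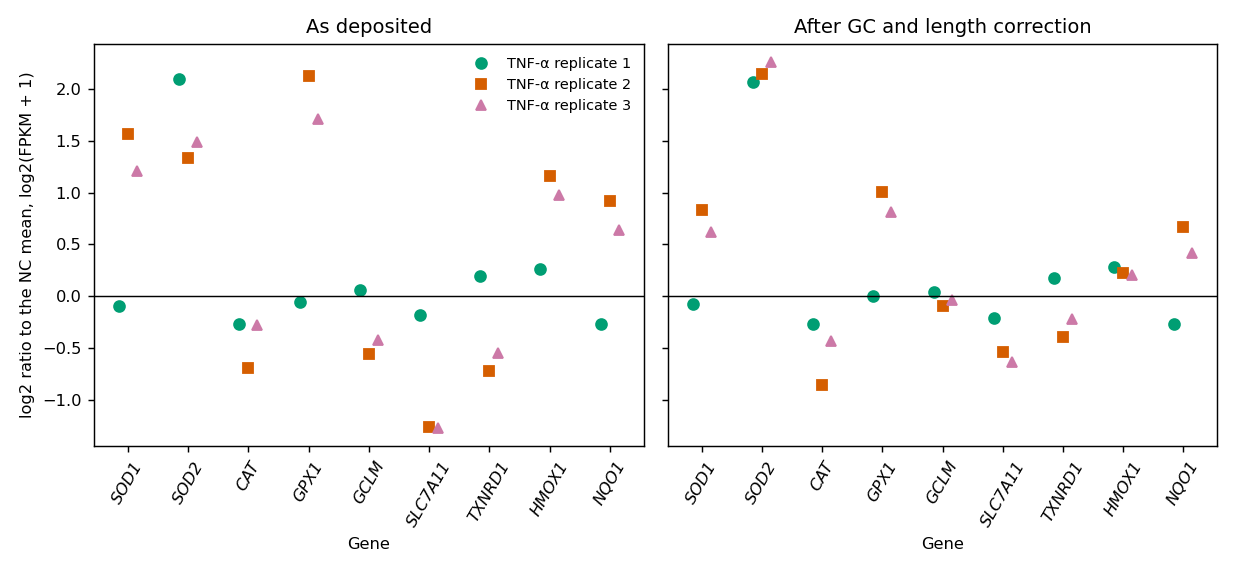
The log2 ratio of each TNF-α library to the NC mean, log2(FPKM + 1), for the 9 tested genes, as deposited on the left and after the GC and length correction on the right. The 3 libraries of SOD2 lie between 1.34 and 2.10 on the left and between 2.07 and 2.26 on the right, and for the other 8 genes, except CAT, TNF-α replicate 1 lies nearer to the other libraries on the right.

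Of the 9 members tested, 1 rose and 0 fell at an adjusted p under 0.05 in limma (0.717% and 0.297% of all genes), and 4 had an unadjusted p under 0.05 (24.2% of all genes), namely SOD2, HMOX1, CAT and SLC7A11. Log2 fold changes were positive for 5 and negative for 4 members, with a median of 0.43 as against 0.04 for all genes tested. That median is the value of NQO1, so it was -0.07 as TPM and -0.23 after quantile normalization. TPM also shifted the all-gene median to -0.42, and SOD2 stood 1.71 above that median. SOD2 and HMOX1 lay above NC in all TNF-α libraries, and CAT and SLC7A11 below, and the same held for 14.8% and 15.3% of all genes. With 2 of 9 members in each direction, these counts are too small to set against those shares.

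TNF-α replicate 1 was above the NC range for SOD2, HMOX1 and TXNRD1, below it for SOD1, CAT, GPX1, NQO1 and SLC7A11, and within it for GCLM. Among all genes 30.5% were above and 34.3% below. SOD2 was the member that stood apart in that library, at a log2 ratio of 2.10, whereas the other 8 members lay between -0.27 and 0.26. Without TNF-α replicate 1 all 9 members passed, 5 higher and 4 lower, but so did 42.6% of all genes as higher and 36.8% as lower. The members' shares are read against these.

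In the libraries with the altered composition the members other than SOD2 were in the order of gene length, or nearly so. The order was exact in TNF-α replicate 3, whereas in TNF-α replicate 2 CAT lay below the longer GCLM. GC content ran along with length, from 64.2% in GPX1, the shortest, to 35.4% in SLC7A11, the longest of these 8. Length and GC content cannot be told apart here. Spearman's rho between length and log2 ratio over the 8 tested members other than SOD2 was -0.05 in TNF-α replicate 1, -0.98 in TNF-α replicate 2 and -1.0 in TNF-α replicate 3. With SOD2 included (n = 9) it was 0.27, -0.63 and -0.53, and over all genes tested 0.05, -0.41 and -0.42. The members share these libraries and the correlation is a description. GPX1, SOD1, HMOX1 and NQO1, the 4 shortest, were the 4 tested members with values above NC in TNF-α replicates 2 and 3, apart from SOD2, which is the longest.

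**Figure D4:**
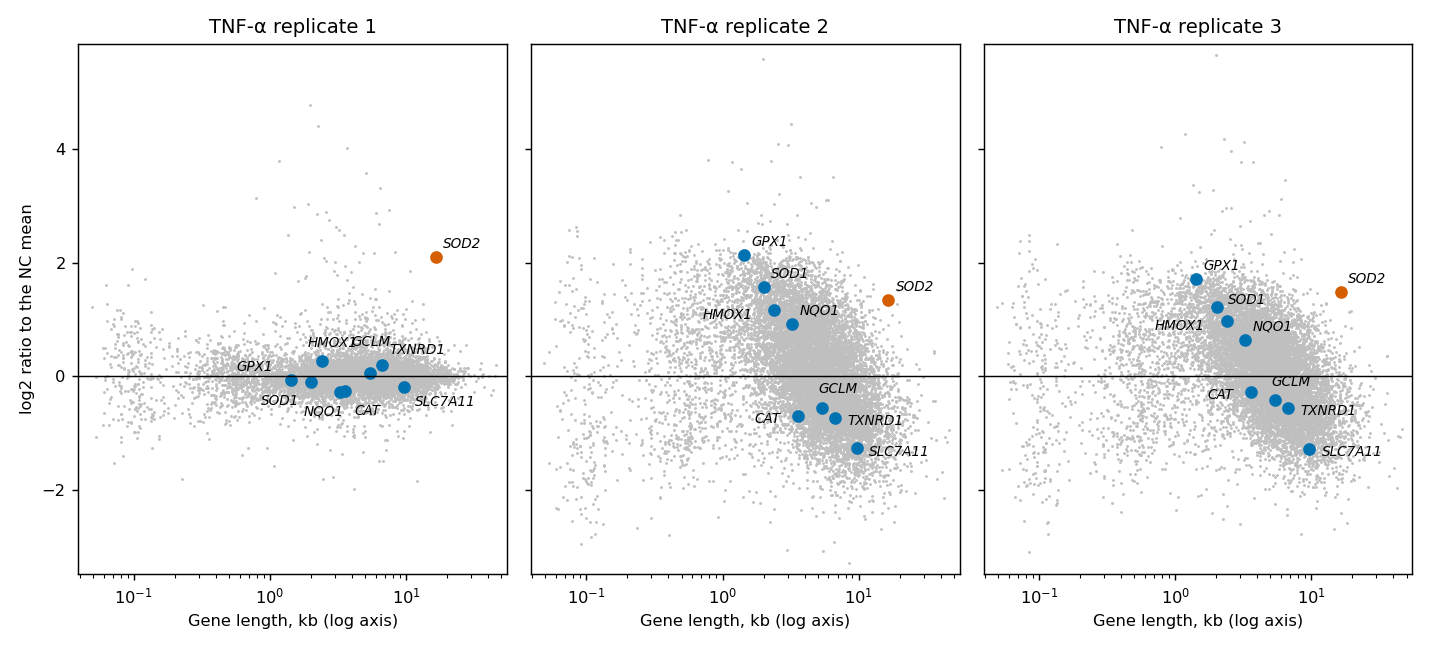
The log2 ratio to the NC mean, log2(FPKM + 1), against gene length in kb on a log axis, in 1 panel for each TNF-α library. Grey points are the 12136 genes tested, blue points the 8 other members and the orange point SOD2. The grey cloud is level in TNF-α replicate 1 and slopes down in replicates 2 and 3, where the blue points follow the slope and SOD2 lies above it.

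Per length, the members ranked in NC as GPX1, NQO1, TXNRD1, SOD1, GCLM, SLC7A11, CAT, HMOX1 and SOD2. The ranges of neighbours overlapped only for NQO1 and TXNRD1. In the TNF-α group the order of the means was GPX1, NQO1, SOD1, TXNRD1, GCLM, SOD2, HMOX1, SLC7A11 and CAT, and the ranges of all neighbours overlapped except those of TXNRD1 and GCLM. SOD2 was thus last of the 9 in every NC library, and in TNF-α replicate 1, at 21.7 FPKM, it stood above SLC7A11 at 14.0 and HMOX1 at 8.23. Its place rests on division by the full 16493 bases.

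Among all genes tested, those whose log2 ratios over the 6 libraries were nearest to SOD2 were TCIM, CLDN1 and JAM2, at Euclidean distances of 0.40, 0.58 and 0.61. CLDN1 and JAM2 encode tight junction membrane proteins. CLDN1 had 3.37, 2.74 and 2.35 FPKM in NC and 11.2, 6.96 and 9.14 in TNF-α libraries, and JAM2 had 1.23, 1.63 and 1.18 and 5.78, 5.42 and 5.59. TCIM had 2.02, 1.81 and 2.00 FPKM in NC and 8.96, 6.18 and 6.22 in TNF-α libraries. In all 3 genes, as in SOD2, TNF-α replicate 1 was the highest library. The 3 genes were picked by their likeness to SOD2 over these libraries. This shared order was thus largely fixed by the choice and supports nothing.

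NF-kB response genes were read as a check of the treatment, in a list chosen with earlier results of these data known. Of 12 listed genes, all 12 tested, 10 rose and 0 fell, as against 0.717% and 0.297% of all genes. The median log2 fold change of the 12 was 2.74, with medians of 2.77, 3.04 and 2.90 in TNF-α replicates 1 to 3. IL6, which is among them, had 0.522, 0.663 and 0.271 FPKM in NC. It passed the filter on low values only through its TNF-α libraries. Between 4 and 7 of the 12 passed when any 1 library other than TNF-α replicate 1 was left out. Without TNF-α replicate 1 all 12 passed as higher, as did 42.6% of all genes. Examples were the chemokines CCL2 (log2 fold change 5.33, limma adjusted p = 0.000833) and CXCL8 (4.12, adjusted p = 0.000996) and the adhesion molecule ICAM1 (3.76, adjusted p = 0.000833). SOD2, at 1.64, lay below the median of this list.

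The wider antioxidant network was read in 8 further lists with 111 genes, 88 of them tested. Of these 88, 2 rose and 0 fell in limma, as against 0.717% and 0.297% of all genes, and 19 had an unadjusted p under 0.05, near the 24.2% of all genes. Their median log2 fold change was 0.47, but the medians of TNF-α replicates 1 to 3 were -0.06, 0.86 and 0.69, and the correction left it at 0.21. As TPM it was 0.0028, where the median of all genes was -0.42, as against 0.04 as deposited. The TPM medians of the single lists below are read against the same -0.42. With any 1 library other than TNF-α replicate 1 left out 0 of the 88 passed. When TNF-α replicate 1 was left out 80 passed, 59 higher and 21 lower, as against 42.6% and 36.8% of all genes.

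The first gene that rose was MAFF, a small MAF protein that pairs with NRF2 or BACH1 on antioxidant response elements. It had 2.78, 2.09 and 2.59 FPKM in NC and 6.73, 11.4 and 9.73 in TNF-α libraries (log2 fold change 1.54, SE 0.20, limma adjusted p = 0.0327). MAFF passed after correction as well (1.23, adjusted p = 0.00511). It was the called gene of 10 tested NRF2 regulators, whose median was 0.20 (-0.04 after correction, -0.28 as TPM). NFE2L2, which encodes NRF2, had 13.4, 14.6 and 13.7 FPKM in NC and 14.3, 11.3 and 11.5 in TNF-α libraries (log2 fold change -0.16, limma adjusted p = 0.380), and 20.9% of its exonic length is shared with other genes. Its log2 fold change was -0.04 after correction (adjusted p = 0.735). KEAP1 was at 0.44 (adjusted p = 0.219) and BACH1, a repressor of HMOX1, at -0.43 (adjusted p = 0.365), and after correction they were at -0.09 and -0.05. These are RNA levels, and NRF2 is controlled mainly as a protein.

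The other called gene was GPX3, the secreted glutathione peroxidase, in the list of other superoxide and peroxide enzymes. It had 0.280, 0.183 and 0.266 FPKM in NC and 2.19, 1.26 and 1.65 in TNF-α libraries (log2 fold change 1.11, limma adjusted p = 0.0421). It passed the filter on low values only through its TNF-α libraries, so that its call is given as a value and supports nothing, and after correction it did not pass (0.60, adjusted p = 0.228). Of the 12 tested genes of this list, 11 had positive values, and their median of 0.84 (0.46 after correction, 0.37 as TPM) split into -0.05 for TNF-α replicate 1 and 1.28 and 1.13 for the other 2. That GPX3 was higher in TNF-α replicate 1 was fixed by the filter, so that it is not set against the median of its list.

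In the glutathione list 0 of 20 tested genes passed, with 16 positive values and a median of 0.52 (0.43 after correction, 0.07 as TPM), and -0.10 in TNF-α replicate 1. Its extremes were GSTO1, a glutathione transferase, and GCLC, the catalytic partner of GCLM. GSTO1 had 41.4, 39.1 and 39.3 FPKM in NC and 42.3, 164 and 127 in TNF-α libraries (limma adjusted p = 0.195). GCLC was at a log2 fold change of -0.61 (adjusted p = 0.195). In the thioredoxin list 0 of 14 passed, with a median of 0.32 (-0.00012 after correction, -0.15 as TPM), and the extremes were TXN at 1.01 (adjusted p = 0.195) and SESN3, a sestrin, at -1.33 (adjusted p = 0.0674). SESN3 had 3.50, 3.92 and 3.07 FPKM in NC and 1.46, 0.547 and 0.487 in TNF-α libraries, and after correction it was lower at -0.88 (adjusted p = 0.0173). It passed the filter on low values only with its NC libraries, where it was high, so that this call is given as a value and supports nothing.

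Among 11 tested genes for NADPH supply 0 passed as deposited, with a median of 0.00 (0.01 after correction, -0.49 as TPM). NNT, the mitochondrial transhydrogenase, lay lowest at -1.05 (limma adjusted p = 0.187) and TALDO1 highest at 0.94. For NNT the log2 fold change was -0.66 after correction, and the log2 ratio in TNF-α replicate 1 was -0.39. IDH1, which makes cytosolic NADPH, had 20.4, 19.9 and 17.6 FPKM in NC and 13.0, 10.2 and 10.5 in TNF-α libraries, and was lower after correction at -0.64 (adjusted p = 0.0321, as deposited -0.73 with adjusted p = 0.106). In heme and iron handling 0 of 10 passed, with a median of 0.35 (0.18 after correction, -0.13 as TPM), HMOX2 highest at 0.95 and TFRC, the transferrin receptor, lowest at -0.53. Of 10 other NRF2 target genes 0 passed, with a median of 0.51 (0.33 after correction, 0.09 as TPM), AKR1B1 highest at 1.19 and UGDH lowest at -0.27. For AKR1B1 the log2 fold change was 0.85 after correction, and the log2 ratio in TNF-α replicate 1 was 0.36. In limma, after correction, 1 of the 88 genes was higher and 2 were lower, as against 1.27% and 0.767% of all genes. The 2 lower genes were IDH1 and SESN3, the latter with the limit of the filter given above.

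The superoxide-producing NADPH oxidases were hardly expressed. Of 15 genes for these enzymes and their subunits, 1 passed the filter, RAC1, a small GTPase with many other roles. It had 158, 166 and 157 FPKM in NC and 177, 313 and 276 in TNF-α libraries (log2 fold change 0.63, -0.07 after quantile normalization, limma adjusted p = 0.195).

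**Figure D5:**
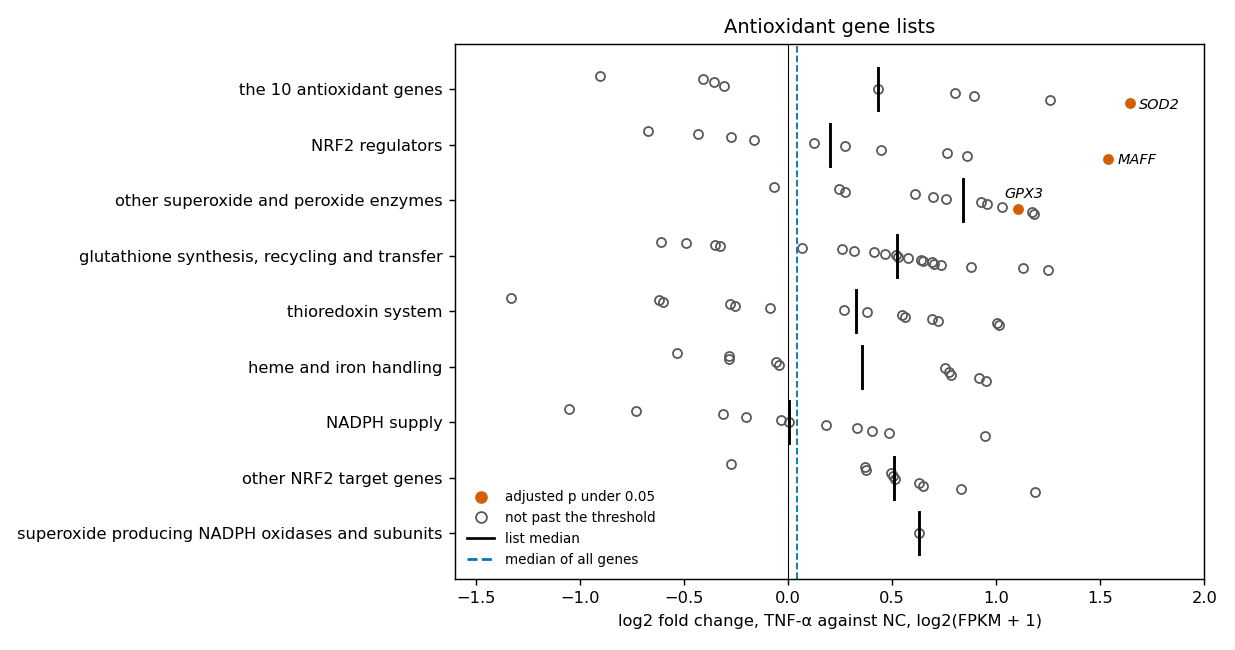
The log2 fold change, log2(FPKM + 1), of each tested gene, 1 row for the 10 antioxidant genes and 1 for each of the 8 other lists, with genes past an adjusted p of 0.05 filled and named, list medians as black bars and the median of all genes, 0.04, as a dashed line. SOD2, MAFF and GPX3 are the filled points, GPX3 having passed the filter only through its TNF-α libraries, and most lists have a median to the right of the dashed line, whereas in TNF-α replicate 1 alone 6 of the 9 medians were below 0.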

How the data were processed

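Poly(A)-selected RNA-seq libraries of 6 U251 cultures were grouped by their sample titles. The submitters' processing notes name HISAT2 2.0.5, StringTie 1.3.3b, featureCounts 1.5.0 and GATK 3.7, without roles, beside DESeq2 and edgeR. The authors deposited gene-level FPKM, 1 column per library, unpooled and not log-transformed. All 58735 rows matched GENCODE 29 on GRCh38 in identifier, position and merged exon length. Another 6 per-sample columns matched no sample described here and were not used. FPKM multiplied by gene length and divided by the value of 1 read in that library, estimated from its low values, was a whole number for 100% of values (tolerance 0.01 reads).

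Genes with FPKM of at least 1 in at least 3 libraries were compared as log2(FPKM + 1), which understates changes of low genes, with limma 3.58.1 in R 4.3.3 (eBayes with trend, two-sided, 4 residual degrees of freedom, Benjamini-Hochberg over 12136 genes, threshold 0.05), checked on simulated data. The correction subtracted from each library a fit on natural splines of transcript GC and gene length (5 degrees of freedom each, with products). Errors and intervals after the correction treat that fit as known. Euclidean distance over the log2 ratios of the 6 libraries gave the genes nearest to SOD2. Members and lists were chosen with earlier results of these data known. Named were all members, NFE2L2, KEAP1, BACH1, the 3 genes nearest to SOD2, and per list up to 3 called genes or, with none, the extremes. WTAP and IDH1 were added after their values were seen.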

Additional observations from a re-analysis of the deposited data

How the results depend on the processing

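SOD2 stayed positive under all 20 alternatives (log2 fold change 1.3 to 2.16, limma adjusted p 1.01e-05 to 0.237) and missed the threshold under 8 of them. These were no filter on low values (1.64, adjusted p = 0.0902), TPM (1.3, or 1.71 above the all-gene median, adjusted p = 0.178), the replicate block and 5 of the 6 leave-one-out fits. The exception was the fit without TNF-α replicate 1, at 1.41, and the other 5 ranged from 1.63 to 1.79. The numbers of called antioxidant genes, of called genes in the 8 other lists and of all called genes were 1, 2 and 123 as reported. They were 0, 0 and 58 without a filter, 0, 1 and 58 with TPM, 1, 1 and 79 with an FPKM of at least 5, and 1, 1 and 108 with centring on the median. Quantile normalization called 185 genes in all, and the GC and length correction 247. TNF-α replicate 1 alone against NC, chosen after seeing the data, called 1, 12 and 732. Leaving out 1 library gave 0 to 9, 0 to 80 and 10 to 9630, the upper ends without TNF-α replicate 1. The causes were not tested, except that fewer samples or more genes tested enter by construction.

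No pairing by replicate number was seen, with same-numbered deviations from the group means correlated at -0.01, -0.18 and 0.12. Differently numbered ones correlated at -0.16 to 0.18. The check cannot exclude pairing, because TNF-α replicate 1 differed from TNF-α replicates 2 and 3 in composition. With the replicate block 0, 0 and 24 genes were called and SOD2 was at 1.64 (adjusted p = 0.127). With the replicate block and the GC and length correction together 1, 0 and 42 were called, and SOD2 was at 2.16 (adjusted p = 0.00931).

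NQO1 turned negative with TPM (-0.070, or 0.35 above the all-gene median), quantile normalization (-0.23) and TNF-α replicate 1 alone (-0.27). In that last setting SOD1 (-0.094) and GPX1 (-0.060) also turned negative, and GCLM (0.060) and TXNRD1 (0.20) positive. The 8 members other than SOD2 each passed the threshold under 1 of their 20 alternatives, the fit without TNF-α replicate 1. For SOD3, with 0 to 9 reads, depth limits what can be seen.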
